A study of Boehmeria nivea with 12 samples.

Results

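In stems of ramie (Boehmeria nivea), 564 of the 66,881 unigenes in the deposited table were, by the rule given below, higher in 5 libraries of the cultivar H4 (Huazhu No 4) than in 5 of the cultivar Z2 (Zhongzhu No 2), with or without water culture, and the 200 with the largest differences are described here. In the 2 remaining libraries, labelled H4CK1 and Z2T1, they were low and high, against the labels, and with all 12 libraries 0 of the 200 met the same rule. A unigene is a gene-level cluster of transcripts that the Trinity assembler built from the reads, and the table names it by an identifier only. The samples fell into 4 groups of 3 libraries, namely H4T and Z2T from stem segments that stood in tap water for 10 days, and H4CK and Z2CK from stems taken off the parent plants with no such culture. All plants grew in a greenhouse, each replicate pooled 5 plants, and poly(A) RNA of the stem was sequenced. H4 and Z2 are 2 single cultivars, so a difference between them belongs to these cultivars and not to ramie at large. The identifiers carry no gene names, so the stem label was not checked against marker genes.

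The members were chosen by their FPKM (fragments per kilobase of unigene, scaled to the fragments of the library), taken as y = log2(FPKM + 1). The libraries labelled H4CK1 and Z2T1 were left out of the choice, which therefore rested on 5 libraries of H4 and 5 of Z2. In a member, the lowest of the 5 H4 libraries lay above the highest of the 5 Z2 libraries, and the mean of y changed by less than 1 with water culture in either cultivar. The difference H4 minus Z2 was at least 1 on this scale in both treatments, and the unigenes were ranked by the smaller of the 2 differences. The rule was met by 564 unigenes, of which the first 200 are the members. Of the unigenes that passed a filter on low values, 2.04% met the rule, beside 2.68% with the cultivars exchanged. The difference between the cultivars and the small change with water culture are thus properties of the choice, and their values are given as a description. The limma counts further on describe how unigenes so chosen fared in a fit over all unigenes that passed the filter, and they do not test the choice. Rank 199, TRINITY_DN42132_c2_g1, and rank 200, TRINITY_DN38179_c3_g2, had a smaller difference of 1.85 and 1.84. The first unigenes outside the limit, TRINITY_DN42002_c2_g1 and TRINITY_DN41571_c0_g1, had 1.83 and 1.83.

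Ramie is an outcrossing and highly heterozygous bast fibre crop of the nettle family that is propagated by cuttings, and each cultivar is kept as a clone. A de novo assembly has no genome to order its contigs, so alleles, paralogs and pieces of 1 gene can be listed as separate unigenes. In a Trinity identifier the DN number and the letter c give the component, a group of contigs that share sequence, and the letter g gives the unigene within it.

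The values of the members split the 12 libraries into 2 sets that did not follow the cultivar labels in 2 libraries. The library labelled H4CK1 had low values and the library labelled Z2T1 had high values, although the rule had used neither. Across the 16,801 unigenes whose FPKM reached 1 in each of the 12 libraries, H4CK1 was most like Z2T2 (Pearson's r of 0.982, against 0.822 to 0.832 with the other H4CK libraries). Z2T1 was most like H4CK2 (r of 0.976, against 0.812 to 0.816 with the other Z2T libraries). These coefficients are taken across genes, which are not independent replicates. The labels were kept as deposited, so sums, differences and fits are given with and without these libraries, and means, variation and folds are over the 10 libraries of the rule unless stated. The FPKM of a library summed to between 914,642 and 1,061,225 over all unigenes, and the reads behind a single value are not known.

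**Figure D1:**
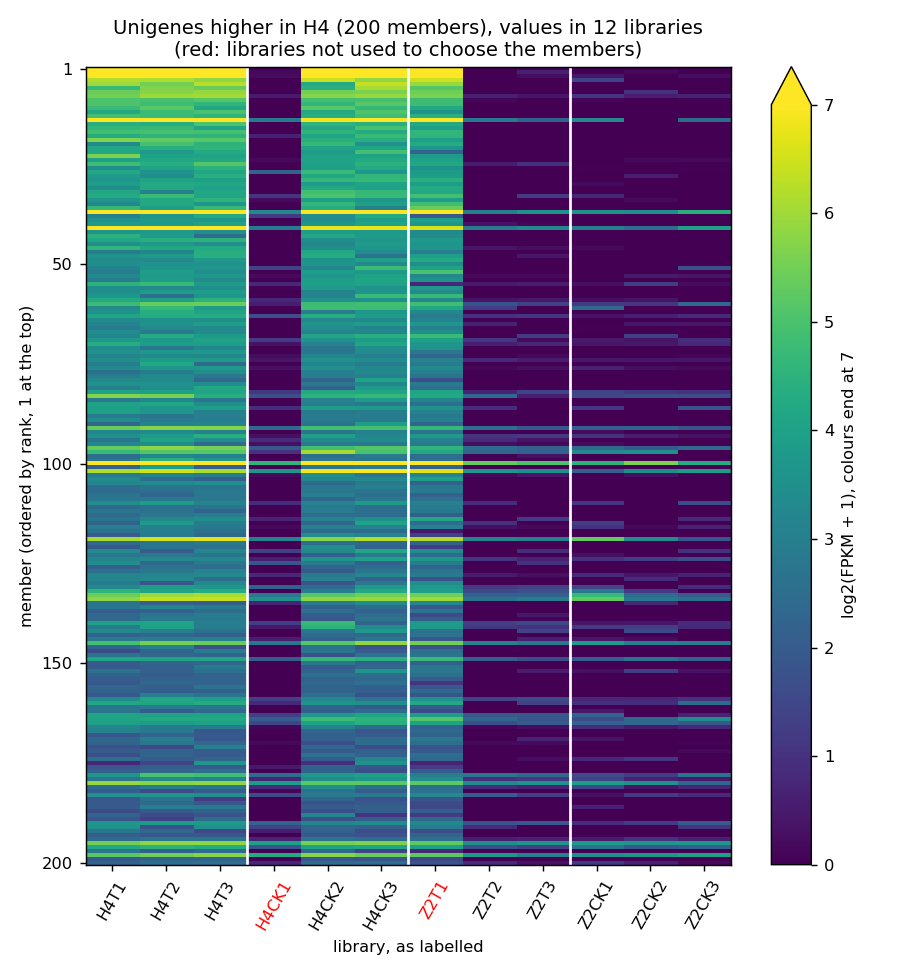
Heat map of log2(FPKM + 1) for the 200 members (down the page, by rank) in the 12 libraries (across, as labelled), with colours that end at 7. The columns H4T1 to H4T3, H4CK2 and H4CK3 are bright and so is Z2T1, whereas H4CK1 is dark like the other 5 Z2 columns.

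Together the members made up a small part of the H4 transcriptome and nearly none of that of Z2. Their FPKM summed to 6589, 6788 and 7051 in H4T1 to H4T3 and to 6661 and 7445 in H4CK2 and H4CK3, against 199 and 185 in Z2T2 and Z2T3 and 286, 202 and 193 in Z2CK1 to Z2CK3. This was 0.672% to 0.814% of the library total in the 5 H4 libraries and 0.0180% to 0.0300% in the 5 Z2 libraries. The sum was 208 in the library labelled H4CK1 and 6854 in the library labelled Z2T1. The sums of the 2 sets of 5 libraries could not overlap, since the rule separated the sets in every member. H4CK1, which the rule did not use, lay in the range of the Z2 libraries, and Z2T1, also not used, in that of the H4 libraries. The first 3 members by rank held 46.4% to 51.6% of the sum in the 5 H4 libraries. Without them the sums were 3306 to 3675 in these H4 libraries and 184 to 286 in the 5 Z2 libraries.

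Most members were of middling abundance. The mean FPKM over the 5 H4 libraries ranged from 2.80 to 1976 with a median of 10.4, beside a median of 8.07 for the 27,628 unigenes whose FPKM reached 1 in 3 or more libraries, called the unigenes tested below. All 200 members passed that filter. The rule and the ranking by difference put a floor under the H4 level of the members, which the unigenes tested do not have. The medians are thus not a comparison of like with like, and the lowest mean was set in part by the choice. The mean was under 5 in 41 members, from 5 to under 10 in 56, from 10 to under 100 in 96 and at least 100 in 7. The median coefficient of variation over the 5 H4 libraries was 27.0% (range 5.11% to 108%), which spans both treatments. Over all 6 libraries labelled H4 the median of the mean was 8.74 and the median coefficient of variation was 54.8% (range 30.6% to 125%).

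The largest values belonged to 2 unigenes of 1 component. TRINITY_DN41937_c0_g3 had an FPKM of 2013, 2006 and 1884 in H4T1 to H4T3 and 1867 and 2111 in H4CK2 and H4CK3, and was listed at 0 in all 5 Z2 libraries of the rule. It had the lowest coefficient of variation of the 200 members, 5.11%. It was listed at 0 in the library labelled H4CK1 and at 1894 in the library labelled Z2T1. TRINITY_DN41937_c0_g2 had 703, 618 and 838 in H4T and 830 and 948 in H4CK2 and H4CK3, against 0 and 0.52 in Z2T2 and Z2T3 and 0, 0.13 and 0 in Z2CK. Its value was 0.12 in H4CK1 and 1050 in Z2T1.

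The component has another unigene, TRINITY_DN41937_c0_g1, which was expressed in both cultivars and is shown here after its values were seen. It had 757, 684 and 854 in H4T and 850 and 948 in H4CK2 and H4CK3, against 1266 and 1241 in Z2T2 and Z2T3 and 2786, 1522 and 2651 in Z2CK. All 5 Z2 libraries were thus higher than all 5 H4 libraries, the opposite of the other unigenes of the component. In H4 the values of TRINITY_DN41937_c0_g1 stood close to those of TRINITY_DN41937_c0_g2 library by library, as they also did in Z2T1 (1049 and 1050), while H4CK1 had 1349 and 0.12.

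TRINITY_DN32877_c1_g4, next by rank, had 566, 522 and 654 in H4T and 654 and 786 in H4CK2 and H4CK3. It had 0 and 0.17 in Z2T2 and Z2T3 and 0.37, 0 and 0.19 in Z2CK, with 0.16 in H4CK1 and 842 in Z2T1. Another unigene of its component, TRINITY_DN32877_c1_g1, also chosen after its values were seen, had 193 to 262 in the 5 H4 libraries. In Z2 the same unigene ranged widely, with 971 and 463 in Z2T2 and Z2T3 and 39.1, 1049 and 14.3 in Z2CK1 to Z2CK3. No function is known for these unigenes from the sources used here.

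The next members by rank were lower by about an order of magnitude. TRINITY_DN41446_c3_g6 averaged 68.0 ± 12.5 in H4, and in Z2 it was listed at 1.66 in Z2CK1 and at 0 in the other 4 libraries (SD, n = 5 libraries per cultivar here and below). TRINITY_DN41406_c1_g1 had 61.8, 44.3 and 75.8 in H4T and 18.6 and 81.5 in H4CK2 and H4CK3, and TRINITY_DN38751_c1_g3 had 25.5, 50.5 and 40.7 in H4T and 20.9 and 67.1 in H4CK2 and H4CK3. Both were listed at 0 in all 5 Z2 libraries and were lowest among the H4 libraries in H4CK2. TRINITY_DN37441_c1_g2 averaged 48.9 ± 6.62 in H4 and was listed at 0.99 in Z2CK2 and at 0 elsewhere in Z2. TRINITY_DN41993_c2_g1 was above 0 in every library, with 56.8 ± 8.28 in H4 and 0.616 ± 0.292 in Z2. For these 5 members too, H4CK1 was at 0 to 0.43 and Z2T1 at 34.8 to 88.1.

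**Figure D2:**
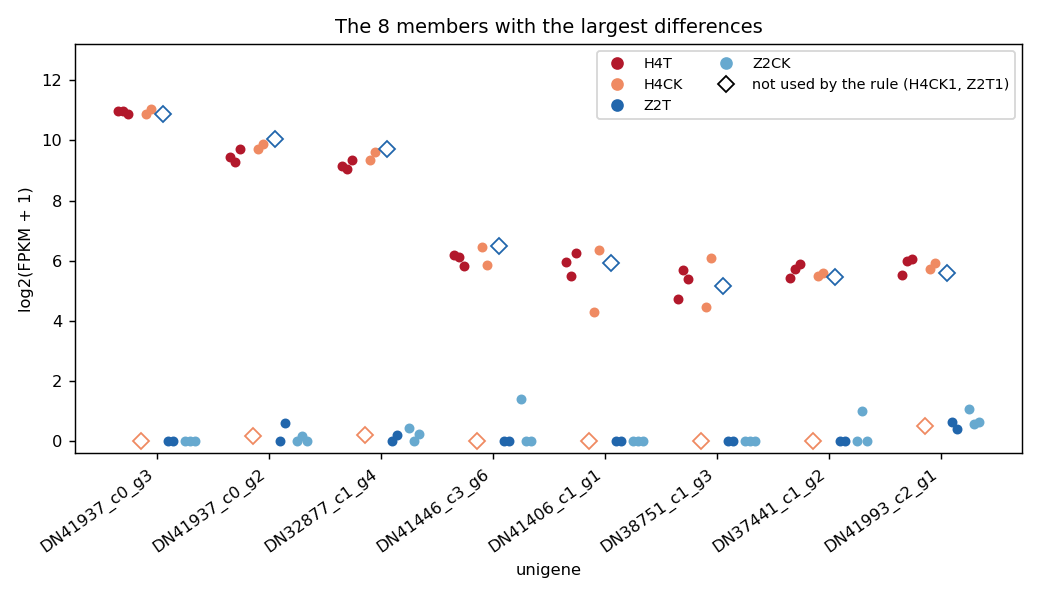
log2(FPKM + 1) of the 8 members with the largest differences, in each library, with H4T, H4CK, Z2T and Z2CK from left to right within each unigene. Open diamonds mark H4CK1 and Z2T1, which the rule did not use: for all 8 unigenes the H4CK1 diamond sits with the Z2 points and the Z2T1 diamond with the H4 points.

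The members were split into 3 classes by their level in Z2. In 101 members (50.5%) all 5 Z2 libraries were listed at 0. Their mean FPKM in H4 had a median of 7.74 (range 2.80 to 1976), so that no fold change can be given. In 66 members (33.0%) the mean of the 5 Z2 libraries was above 0 and under 1, with a median of 0.209, against a median of 8.88 in H4. In the other 33 members (16.5%) the Z2 mean was 1.12 to 31.9, and the H4 mean had a median of 32.6 and was 4.02-fold to 27.6-fold higher (median 7.62-fold). With all 12 libraries as labelled, these 33 folds were 1.81 to 5.73 (median 3.19). Without read counts, a 0 cannot be told apart from a level below the detection of the library. The unigenes above 0 numbered 42,291 and 37,887 in Z2T2 and Z2T3 and 30,966 to 31,464 in Z2CK. In the 5 H4 libraries they numbered 31,450 to 34,107, and in H4CK1 42,401.

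The members that were well expressed in both cultivars included the highest levels in Z2. TRINITY_DN33508_c0_g1 had 307, 186 and 228 in H4T and 362 and 396 in H4CK2 and H4CK3, against 38.7 and 31.4 in Z2T2 and Z2T3 and 22.2, 48.2 and 18.9 in Z2CK. The means were 295.6 ± 88.3 in H4 and 31.9 ± 12.0 in Z2, a 9.27-fold difference. TRINITY_DN40831_c1_g1 averaged 207 ± 40.8 in H4 and 11.8 ± 4.92 in Z2, a 17.6-fold difference. In both unigenes H4CK1 was low (22.8 and 8.86) and Z2T1 was high (249 and 165).

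In a further pair of members 1 library carried most of the Z2 level. TRINITY_DN33830_c0_g1 had 37.9 in Z2CK1, against 2.67 to 9.83 in the other 4 Z2 libraries, and 52.3 to 103 in the 5 H4 libraries. TRINITY_DN42183_c0_g4 had 38.1 in Z2CK1, against 5.03 to 6.74 in the other 4, and 54.7 to 82.3 in H4. Z2CK1 was the highest of the 5 Z2 libraries in 31 of the 99 members that were above 0 in at least 1 of them, followed by Z2T3 in 20, Z2CK2 in 17, Z2CK3 in 17 and Z2T2 in 14. Of these 99 members, 42 were above 0 in all 5 Z2 libraries and 20 in only 1. In H4 the highest value fell in H4T3 for 51 members, in H4T2 and H4CK3 for 45 each, in H4CK2 for 34 and in H4T1 for 25. How often each library was highest over all unigenes was not computed, so these counts do not set the members apart.

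The difference between the cultivars was of a similar size in both treatments. The median over the members of H4T minus Z2T was 2.90 on the log2(FPKM + 1) scale (range 1.86 to 10.94), and that of H4CK minus Z2CK was 2.90 (range 1.84 to 10.96). Over the unigenes tested the medians were 0 and -0.07. The 2 differences of a member lay within 0.5 of each other in 148 of 200, with a median distance of 0.28 and a largest of 1.38. Since the rule held the change with water culture under 1 in each cultivar, the distance could not reach 2. The median SD between libraries of a group was 0.27 in H4T and 0.24 in the 2 H4CK libraries used, and 0 in both Z2 groups, where most members were at or near 0. With H4CK1 and Z2T1 included as labelled, the medians were 2.05 for H4T minus Z2T and 1.94 for H4CK minus Z2CK, and the median SD became 1.68 in H4CK and 1.59 in Z2T.

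**Figure D3:**
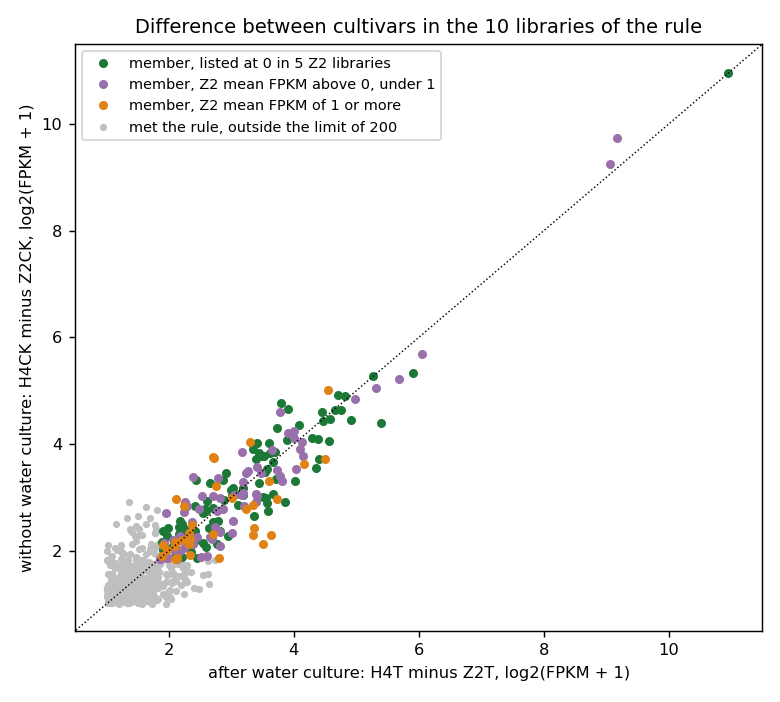
Difference between the cultivars in log2(FPKM + 1) after water culture (horizontal axis, H4T minus Z2T) and without it (vertical axis, H4CK minus Z2CK) in the 10 libraries of the rule, for the 200 members by class and for the 364 other unigenes that met the rule. Members follow the dotted line of equal differences from 1.84 up to the 10.94 and 10.96 of TRINITY_DN41937_c0_g3, and the 364 others fill the corner next to them.

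Within the limits of the rule, the differences between stems with and without water culture had both signs. The median of H4T minus H4CK was 0.05 (range -0.97 to 0.995), with 31 members at 0.5 or above, 19 at -0.5 or below and 150 between. The median of Z2T minus Z2CK was 0 (range -0.85 to 0.97), with 9 members at 0.5 or above, 8 at -0.5 or below and 183 between, 101 of which were listed at 0 in every one of these libraries. TRINITY_DN39361_c0_g1 had the largest difference in H4, with 49.9, 39.2 and 35.1 in H4T, against 20.2 and 19.9 in H4CK2 and H4CK3. TRINITY_DN34106_c3_g1 went furthest the other way, with 17.5, 7.13 and 16.9 in H4T, against 28.2 and 24.3 in H4CK2 and H4CK3. In Z2, where both were listed at 0 in the 5 libraries, the largest differences were those of TRINITY_DN36698_c0_g3 (2.90 and 2.78 in Z2T2 and Z2T3, against 3.63, 0 and 0.61 in Z2CK) and TRINITY_DN37048_c2_g2 (3.08 and 1.41 in Z2T2 and Z2T3, against 0.25, 1.25 and 0.77 in Z2CK). The values of TRINITY_DN36698_c0_g3 in Z2T2 and Z2T3 lay within the range of Z2CK. With H4CK1 and Z2T1 included as labelled, the median change of the members was 0.998 in H4 and 0.93 in Z2, so that the small change holds for the 10 libraries of the rule only.

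Differential expression was called with limma across all unigenes that passed the filter, at an adjusted p (Benjamini-Hochberg) under 0.001 and an absolute log2 difference of at least 2. With all 12 libraries as labelled, limma called 0 of the 200 members in H4T minus Z2T, where 0.00724% of unigenes were called higher in H4T, and 0 in H4CK minus Z2CK, where 0% were called higher in H4CK. At an unadjusted p under 0.05, 115 members were higher in H4T (8.88% of all unigenes) and 92 were higher in H4CK (5.96%). These counts hung on single libraries. The count in H4T minus Z2T was 198 without Z2T1 (2627 of 27,225 unigenes) and 168 without H4CK1 (2799 of 26,684). When any other library was left out it was 28 to 117. The 28 arose without Z2T2 (1827 of 26,680) or Z2T3 (2213 of 26,686), and the 117 without H4CK3 (2309 of 27,143). The count in H4CK minus Z2CK was 199 without H4CK1 (2597 of 26,684 unigenes) and 176 without Z2T1 (2100 of 27,225). When any other library was left out it was 10 to 88. The 10 arose without H4CK3 (1159 of 27,143) and the 88 without Z2T3 (1543 of 26,686). Without H4CK1 and Z2T1, 126 members were called in H4T minus Z2T (0.754% of unigenes higher in H4T) and 125 in H4CK minus Z2CK (0.739% higher in H4CK). Of these, 115 were called in both comparisons, 71 of them listed at 0 in the 5 Z2 libraries, and 64 members were called in neither. The share of all unigenes called in both was not computed. The rule used both comparisons, so these counts describe the choice and were not read as evidence for it.

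In the comparisons of water culture within a cultivar, limma called 0 members with all 12 libraries and 0 without H4CK1 and Z2T1. The count without these 2 libraries was fixed by the rule, which held the change there under 1, whereas a call needs 2. With all 12 libraries 0.00362% of unigenes were called higher in H4T than in H4CK and 0.00362% higher in Z2T than in Z2CK. At an unadjusted p under 0.05, 3 members were higher in H4T (9.11% of unigenes) and 2 were higher in Z2T (8.65%). Without the 2 libraries these counts were 16 of 200 in H4 (23.1%) and 3 of 200 in Z2 (18.6%), and 0.575% and 1.04% of unigenes were called higher. At an adjusted p under 0.05 in either direction the H4 count was 9 of 200, beside 22.9% of unigenes. The rule had removed unigenes with a change of 1 or more, which also bounds the interaction of cultivar and water culture. For the interaction limma gave 0 members at an adjusted p under 0.05 with all libraries (0.0615% of unigenes) and 0 without H4CK1 and Z2T1 (0.461%).

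The libraries labelled H4CK1 and Z2T1 took no part in the choice. Across unigenes at large they were most like libraries of the other cultivar, and they were left out with earlier results known. That they fell on the side of the other cultivar here could be foreseen, so the counts below are a description and no independent check. H4CK1 lay above the highest of the 5 Z2 libraries in 21 of 200 members (10.5%), beside 12.9% of all unigenes tested, and reached the lowest of the 5 H4 libraries in 0 of 200, beside 81.4%. Z2T1 lay below the lowest of the 5 H4 libraries in 60 of 200 members (30.0%), beside 18.4% of all unigenes tested. It lay at or below the highest of the 5 Z2 libraries in 1 of 200, beside 80.2%. H4CK1 was lower than Z2T1 in 199 of 200 members, by a median of 2.69 on the log2 scale. The members were listed at 0 in H4CK1 in 123 cases and in Z2T1 in 0. The shares over all unigenes tested were not computed for the 199, the 123 and the 0. With 1 library on each side there is no replicate for a test.

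In a check added after the data were seen, the choice was repeated without each of the 10 libraries in turn, and the library left out was looked up in the 200 unigenes then chosen. An H4 library was counted where it lay above the highest Z2 library used, and a Z2 library where it lay below the lowest H4 library used. This was so in 193 to 200 of 200 unigenes (96.5% to 100%), whichever library it was. The share over all unigenes was not computed for these 10 libraries. H4CK1 and Z2T1 had 21 and 60 of the 200 members by the same measure, beside 12.9% and 18.4% of all unigenes tested. By this measure a Z2 library need not reach the Z2 range, which Z2T1 did in 1 member. The repeated choices shared 171 to 191 unigenes with the members. When all 12 libraries entered the rule as labelled, 6 unigenes met it, and 0 of them were members.

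**Figure D4:**
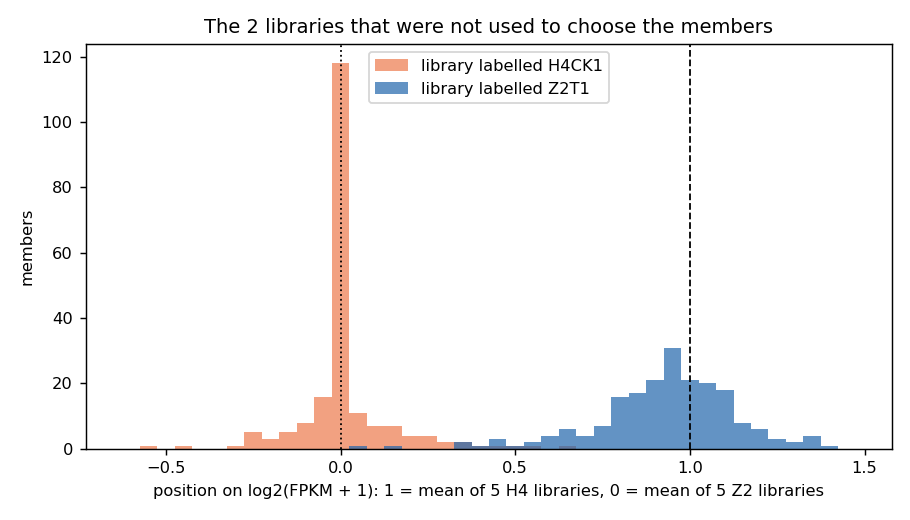
Number of members by the position of the library labelled H4CK1 and the library labelled Z2T1 on log2(FPKM + 1), where 1 is the mean of the 5 H4 libraries and 0 that of the 5 Z2 libraries. H4CK1 has its median at 0 and lies above 0.5 in 2 of 200 members, and Z2T1 has its median at 0.947 and lies above 0.5 in 192.

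The members that came nearest to the cultivar label in these libraries were few. H4CK1 stood furthest above the Z2 libraries in TRINITY_DN39807_c1_g3, with 3.69 in H4CK1, 10.6 to 25.1 in the 5 H4 libraries and 0 in the 5 Z2 libraries. TRINITY_DN37499_c1_g2 had 1.29 in H4CK1, 7.41 to 18.5 in the 5 H4 libraries and 0 in Z2. TRINITY_DN41826_c2_g1 had 2.64 in H4CK1 and 3.54 to 10.0 in the 5 H4 libraries, and in Z2 it was above 0 in Z2T3 only (0.98). In these 3 members too, H4CK1 stayed below every one of the 5 H4 libraries.

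Z2T1 stood furthest below the H4 libraries in TRINITY_DN41295_c2_g1, with 0.73 in Z2T1, 13.0 to 24.6 in the 5 H4 libraries and 0.16 to 1.47 in the 5 Z2 libraries. This was the member in which Z2T1 fell within the Z2 range, and H4CK1 was at 0.76. TRINITY_DN40263_c1_g2 had 0.36 in Z2T1 and 4.41 to 6.93 in the 5 H4 libraries, and TRINITY_DN39767_c0_g1 had 3.81 in Z2T1 and 12.6 to 29.3 in the 5 H4 libraries. Both were listed at 0 in H4CK1 and in the 5 Z2 libraries. Of the 101 members listed at 0 in the 5 Z2 libraries, 93 were also at 0 in H4CK1, where the highest value was 3.69. In Z2T1 these 101 members had a median of 6.01, from 0.36 to 1894.

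For the 364 unigenes that met the rule outside the limit, H4CK1 lay above the highest Z2 library in 68 (18.7%) and reached the lowest H4 library in 11. Z2T1 lay below the lowest H4 library in 112 (30.8%) and at or below the highest Z2 library in 22. Over all unigenes tested, the 5 H4 libraries lay above the 5 Z2 libraries in 5.82% and the 5 Z2 libraries above the 5 H4 libraries in 7.15%. With the cultivars exchanged, 742 unigenes met the rule as higher in Z2, against 564 as higher in H4.

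The identifiers, which the rule did not use, place the 200 members in 192 components. In 8 components 2 unigenes were members. Besides TRINITY_DN41937_c0 these included TRINITY_DN41376_c3, with TRINITY_DN41376_c3_g7 at 28.2 ± 5.49 and TRINITY_DN41376_c3_g9 at 25.4 ± 3.81 in H4, both listed at 0 in the 5 Z2 libraries. A component had 2 or more unigenes for 144 members (72.0%), beside 63.2% of all unigenes tested, and the median number was 3 for the members and 2 for the unigenes tested.

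Some components held unigenes of both kinds. For 15 members (7.5%) the component also held a unigene that met the rule with the cultivars exchanged, beside 3.03% of all unigenes tested. Among components of 2 or more unigenes the shares were 10.4% for the members and 4.80% for the unigenes tested. These shares are a description of the identifiers, since unigenes of a component share sequence and are not independent. The 15 members belonged to 14 components and had 18 partners higher in Z2. In H4 the partners had a mean FPKM of 0 to 10.8 with a median of 0.012, against 1.16 to 72.7 with a median of 4.96 in Z2.

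The clearest pair was TRINITY_DN35902_c1_g2 and TRINITY_DN35902_c1_g4. The member TRINITY_DN35902_c1_g2 had 10.6, 12.2 and 12.2 in H4T and 5.67 and 9.47 in H4CK2 and H4CK3 and was listed at 0 in the 5 Z2 libraries. Its partner TRINITY_DN35902_c1_g4 was listed at 0 in the 5 H4 libraries and had 62.9 and 76.1 in Z2T2 and Z2T3 and 75.6, 78.5 and 70.3 in Z2CK. In H4CK1 the member was at 0 and the partner at 69.8, and in Z2T1 the member was at 5.90 and the partner at 0. Both unigenes thus placed these 2 libraries on the side of the other cultivar.

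Both members of TRINITY_DN41376_c3 had the partner TRINITY_DN41376_c3_g11, which was at 0 to 0.06 in the 5 H4 libraries, against 9.57 and 10.7 in Z2T2 and Z2T3 and 15.1, 11.1 and 10.8 in Z2CK. TRINITY_DN41455_c2_g7 had 7.96 to 26.5 in the 5 H4 libraries and was above 0 in Z2 only in Z2CK3 (2.34), and its partner TRINITY_DN41455_c2_g4 had 0.17 to 0.94 in H4 and 14.8 to 21.5 in Z2. The member TRINITY_DN41406_c1_g1, described above, had a weakly expressed partner, TRINITY_DN41406_c1_g2, at 0 in 4 of the 5 H4 libraries and 1.53 in H4CK3, against 1.60 to 3.74 in Z2. Over the 18 partners, H4CK1 lay above the highest of the 5 H4 libraries in 17, and Z2T1 lay below the lowest of the 5 Z2 libraries in 18. The partners were chosen as separated between the 5 Z2 and the 5 H4 libraries, and the same counts over all unigenes were not made. Whether such pairs are alleles or copies of 1 gene was not tested, as the table holds no sequences.

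**Figure D5:**
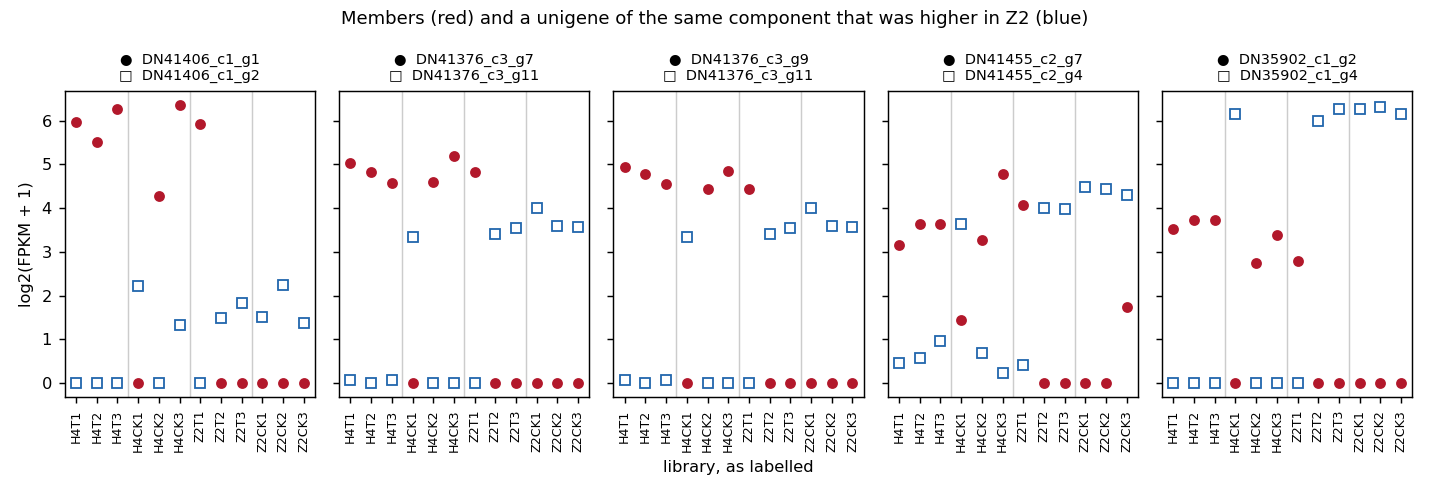
log2(FPKM + 1) in the 12 libraries as labelled for 5 members (filled red circles) and a unigene of the same component that was higher in Z2 (open blue squares), one panel per member. In the 5 H4 libraries of the rule every circle lies above its square, and in the 5 Z2 libraries every square lies above its circle. H4CK1 follows the Z2 pattern and Z2T1 the H4 pattern in every panel.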

How the data were processed

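FPKM was deposited by the authors for 66,881 Trinity unigenes in 12 libraries, with 2 decimals. The paper's methods describe quality filtering of reads, mapping with HISAT2 to a ramie genome and FPKM by RSEM. That route yields genome genes, and for the assembly of the unigenes and their FPKM the steps are not given in the sources used. Values were used as deposited, with a pseudocount of 1 on the log2 scale, and each column was assigned to a library by its label. The members and lists were chosen with earlier results of these data known. Unigenes to name were taken by rank, by level, at the limit of the choice, by their component partners, by their values in H4CK1 and Z2T1, and by their change with water culture.

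Differences were fitted by limma (version 3.58.1, R 4.3.3) using a variance trend, 4 group means and 8 residual degrees of freedom (6 without H4CK1 and Z2T1). Unigenes entered the fit where FPKM reached 1 in 3 or more libraries. The script was tested on simulated data. A count test was not used, since FPKM is no count. Alternatives were other pseudocounts, filters, thresholds, scalings, a replicate block and libraries left out. Tables were handled in Python 3.11.15 with pandas 2.3.3 and numpy 2.4.6, and plots drawn with matplotlib 3.10.9. The depth of single values is unknown, so no counting interval was computed.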

Additional observations from a re-analysis of the deposited data

How the results depend on the processing

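Leaving out H4CK1 and Z2T1 gave 126 members called by limma in H4T minus Z2T and 125 in H4CK minus Z2CK, against 0 in each with all libraries. The other 21 alternatives gave 0 in each, the replicate block included, as did fits that left out 1 library (0 to 0). In the comparisons of water culture all 22 alternatives gave 0, with 1 library left out too (0 to 0). The 0 without H4CK1 and Z2T1 was fixed by the rule. With the replicate block limma called 0 of the 27,628 unigenes tested in every comparison. At an unadjusted p under 0.05 it gave 64 members in H4T minus Z2T and 32 in H4CK minus Z2CK, against 115 and 92 without the block. Of the 27,628 unigenes tested, 1951 and 1193 were higher in H4 with the block, against 2454 and 1646 without it. For libraries with the same number the correlation of their deviations from the group means was -0.18 to 0.13, and no label says that they were paired. Every comparison held H4CK or Z2T, whose means included H4CK1 or Z2T1. The correlations therefore cannot show whether libraries with the same number deviated together.

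The rule was met by 564 unigenes, by 854 with a pseudocount of 0.1 (141 of the members among the first 200), by 6 with all 12 libraries as labelled, and by 559 to 596 with 1 library left out. The median difference after water culture was 2.90, 5.48 with a pseudocount of 0.1, 2.05 with all 12 libraries and 2.86 to 2.98 with 1 library left out. Without water culture it was 2.90, 5.51, 1.94 and 2.82 to 2.98 under these settings. H4CK1 lay above the Z2 libraries in 21 members, in 11 after quantile normalization and in 22 to 27 with 1 library left out. Z2T1 lay below the H4 libraries in 60, in 55 on a TPM scale, in 44 after median-of-ratios scaling, in 40 after quantile normalization and in 61 to 77 with 1 library left out. For H4CK1 and Z2T1, leaving out a reference library could only keep or raise the count, since the members stayed the same. Component partners were found for 15 members, for 23 with a difference of 0.5 for the partner, and for 27 when the DN number alone had to match. The shares over all unigenes tested were not computed for the 23 and the 27. A smaller pseudocount by itself enlarges the members' differences, and a looser definition of a partner can only add partners. Why the other values changed was not tested. Over the unigenes that passed the filter, with all 12 libraries, the median of H4T minus Z2T was 0.17 after quantile normalization, against 0.03 as deposited. The members' medians in the 10 libraries were 2.84 to 3.07 under the 3 scalings tried.

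The pseudocount understates differences of low unigenes. Without read counts, a value listed at 0 gives no bound on a fold change.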
